A study of Mus musculus with 3 samples.

Results

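Nitric oxide (NO) and cGMP signaling was described through 10 genes, *Nos1*, *Nos2*, *Nos3*, *Gucy1a1*, *Gucy1b1*, *Prkg1*, *Pde5a*, *Pde3a*, *Npr1* and *Npr3*, of the 32285 genes listed for each of 3 single-cell RNA libraries from the mouse ascending aorta. The genes were taken by symbol, and each was found as 1 row in all 3 libraries. Levels were compared among endothelial cells (ECs), smooth muscle cells (SMCs), fibroblasts and immune cells, which were gated on marker genes that do not include any of the 10. The study compared WT male mice with male mice homozygous for mgR, a hypomorphic allele of *Fbn1* that lowers production of fibrillin-1 and models Marfan syndrome, and with mgR mice given losartan, an angiotensin II type I receptor blocker. All mice were on the C57BL/6J background and were killed at day 45, and the mgR-LOS mice drank losartan at 0.6 g/L from day 16. Each library was made from the pooled ascending aortas of several mice, so every group was n = 1 library, and whether the mgR mice received a vehicle is not given in the labels.

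NO is made from arginine by the NO synthases, of which endothelial *Nos3*, inducible *Nos2* and neuronal *Nos1* are separate genes. It diffuses into neighboring muscle cells and binds the heme of soluble guanylyl cyclase, a dimer of an α subunit (*Gucy1a1*) and a β subunit (*Gucy1b1*) that makes cGMP. The natriuretic peptide receptor *Npr1* makes cGMP at the membrane, whereas *Npr3* lacks a cyclase domain and clears the peptides. cGMP activates the kinase encoded by *Prkg1*, which relaxes vascular muscle, and is degraded by *Pde5a*; the product of *Pde3a* degrades cAMP and is inhibited by cGMP.

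The libraries held 7858 (WT), 10657 (mgR) and 14663 (mgR-LOS) cell barcodes and 83338726, 123956320 and 121436873 unique molecular identifiers (UMIs), and 5361, 8076 and 12721 cells passed the filters on gene number and mitochondrial share. Median depth was 13636, 12410.5 and 8334 UMIs per cell. *Fbn1*, the targeted gene, stood at 361, 150.1 and 117 counts per 1e6 UMIs (CPM) over all passing cells, lower in both mutant libraries. Few barcodes were shared between libraries, at most 34 among passing cells (mgR and mgR-LOS). The gates held 99, 208 and 159 ECs, 3650, 3106 and 7901 SMCs, 1304, 2352 and 3041 fibroblasts and 139, 1676 and 779 immune cells in WT, mgR and mgR-LOS, in that order, which is kept for all values given without a library name. Markers kept out of the gates followed the labels, with 2012 to 2303 CPM of 6 endothelial markers in ECs against 40.3 to 155 CPM elsewhere, 3041 to 3549 CPM of 6 muscle markers in SMCs against 72.1 to 253 CPM elsewhere, and 8585 to 10422 CPM of 6 immune markers in immune cells against 7.21 to 43.2 CPM elsewhere. The 6 fibroblast markers separated less, with 2995 to 3524 CPM in fibroblasts and up to 943 CPM elsewhere (SMCs of the WT library). With 1 library per group there was no test between groups. Each 95% interval below covers the counting error of UMIs alone and not the spread between mice, and a gene was counted as higher or lower at a CPM ratio past 1.5-fold in either direction, among genes with at least 100 UMIs over both libraries of a class. The mgR-LOS library was counted with a later version of the counting software than the other two, by the file headers, so losartan and the library run cannot be told apart, and both comparisons use the same mgR library.

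The cyclase subunits are shown first by sequence, since their genes are neighbors and their levels moved together in some classes and apart in others. In GRCm38, *Gucy1b1* lies on the minus strand of chromosome 3 (82032006 to 82074689) and *Gucy1a1* on the same strand (82092427 to 82145789), 17737 bases apart. The RefSeq sequence just upstream of each gene (GRCm38.p6, minus strand, 5′ to 3′) is given with 2 kinds of motif in capitals, the GC box GGGCGG and the CCAAT box, which reads ATTGG where it lies on the other strand.
Gucy1b1, chr3:82074712-82074961: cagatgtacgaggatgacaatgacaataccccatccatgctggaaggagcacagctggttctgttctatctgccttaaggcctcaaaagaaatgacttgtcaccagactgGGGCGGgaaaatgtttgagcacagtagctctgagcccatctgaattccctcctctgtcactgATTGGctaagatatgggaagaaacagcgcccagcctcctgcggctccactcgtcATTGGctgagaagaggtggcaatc
Gucy1a1, chr3:82145790-82145900: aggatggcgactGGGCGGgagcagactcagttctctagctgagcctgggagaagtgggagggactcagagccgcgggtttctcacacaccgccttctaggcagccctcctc
Each stretch is the part of the RefSeq window before the start site that lies outside the annotated gene, 250 bases for *Gucy1b1* and 111 bases for *Gucy1a1*, whose RefSeq start site lies inside the gene as annotated. Positions are counted from the RefSeq start site. The *Gucy1b1* stretch had 1 GC box, starting at -140, and 2 CCAAT boxes on the other strand, at -78 and -24. The shorter *Gucy1a1* stretch had 1 GC box, at -238, and no CCAAT box within its 111 bases. Searched on both strands, the GC box was in 35.7% of all 32851 promoter windows of 300 bases, the CCAAT box in 37.4% and the serum response factor motif known as the CArG box in 1.63%; of the 9 windows that the table gave for 7 of the 10 genes, 6 had a GC box, 4 a CCAAT box and 0 a CArG box. A match in these letters does not show that a factor binds there.

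The classes divided the pathway by role. *Nos3* was an EC transcript, the cyclase subunits, *Prkg1*, *Pde5a* and *Pde3a* were highest in SMCs in all 3 libraries, and the natriuretic receptors had no single leading class. Immune cells stood at or below 13.1 CPM for each of the 10 genes, although with Leiden clusters in place of the gate *Pde3a* of mgR immune cells was 22.2 CPM, 2.80 times its gated level.

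**Figure D1:**
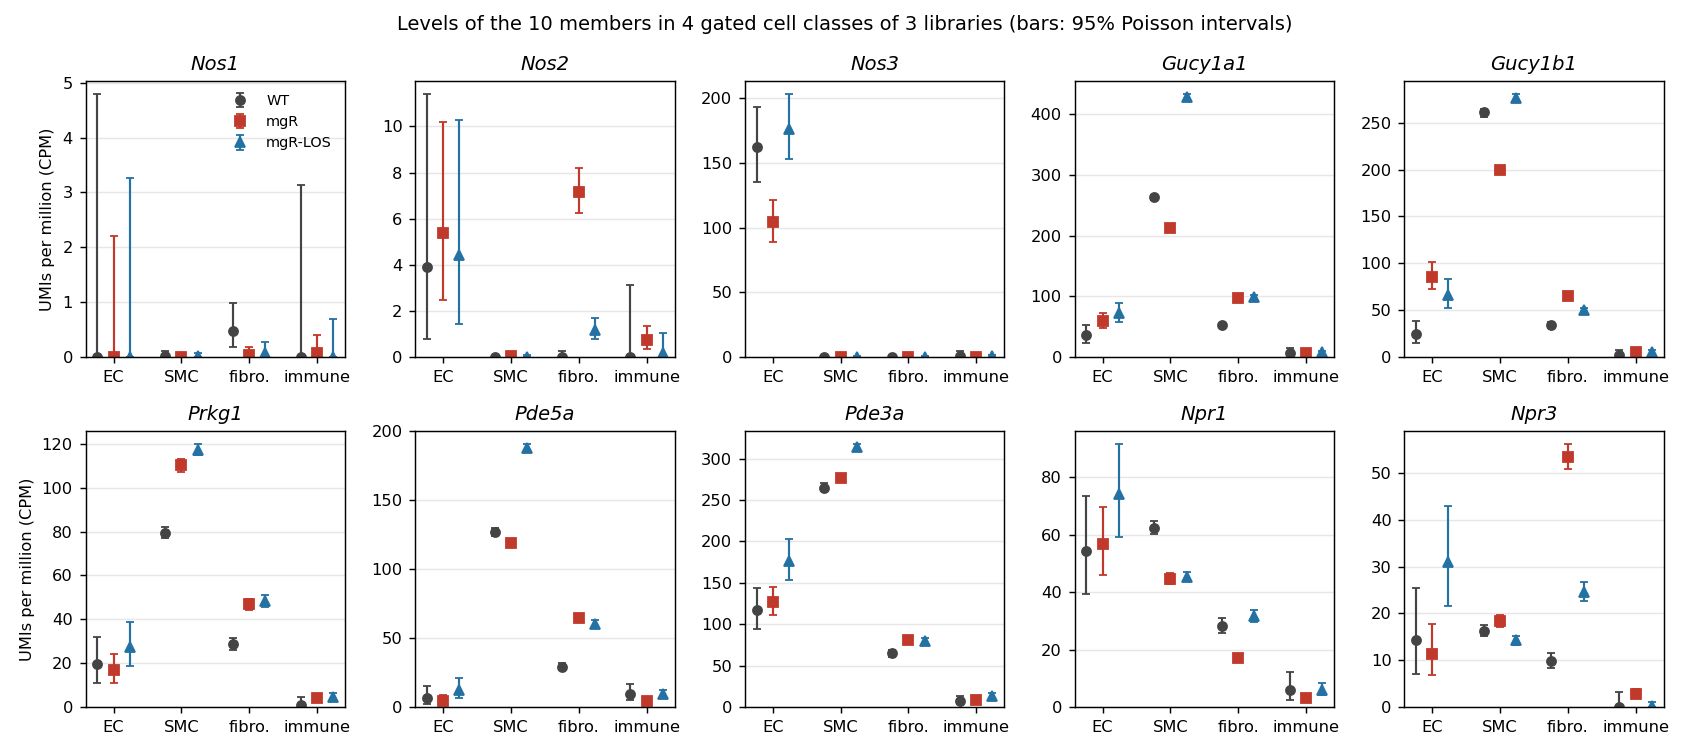
Level of each gene (CPM, vertical axis) in ECs, SMCs, fibroblasts and immune cells of the WT (circles), mgR (squares) and mgR-LOS (triangles) libraries, with 95% Poisson intervals as bars. *Nos3* reached 104 to 176 CPM in ECs and at most 0.849 CPM elsewhere, while *Gucy1a1* and *Gucy1b1* were highest in SMCs.

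*Nos3*, which makes NO in the endothelium, stood in ECs at 162 CPM in WT, 104 CPM in mgR and 176 CPM in mgR-LOS (125, 174 and 200 UMIs). The WT and mgR-LOS intervals overlapped (135 to 193 and 153 to 203), and the mgR interval lay below both (89.3 to 121). The mgR level was 0.643 of WT (95% interval 0.508 to 0.815), and mgR-LOS was 1.69 times mgR (1.37 to 2.09). Outside ECs *Nos3* stayed between 0.202 and 0.849 CPM, or 0.179% to 0.523% of the EC level, which is in the range left by endothelial markers in other classes (medians of 0.158% to 0.907%). After each cell was thinned to 1000 UMIs, 13.1%, 7.77% and 10.7% of ECs held a *Nos3* UMI, against at most 0.0767% of cells of any other class, and the 3 EC intervals overlapped (7.18% to 21.4%, 4.50% to 12.3% and 6.35% to 16.6%). Without thinning the shares of ECs were 47.5%, 41.3% and 52.8% at median depths of 6647, 7678.5 and 5569 UMIs.

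The EC gate held several kinds of vessel. Cells that passed a lymphatic panel (*Prox1*, *Lyve1*, *Mmrn1*, *Flt4*, *Ccl21a*) made up 15.2%, 30.8% and 18.2% of ECs (15, 64 and 29 cells), so the mgR ECs held the largest lymphatic share. Capillary panel cells (*Gpihbp1*, *Cd36*, *Fabp4*, *Rgcc*, *Aqp7*) numbered 20, 37 and 30, and arterial panel cells (*Bmx*, *Gja4*, *Gja5*, *Sema3g*, *Sox17*) 32, 68 and 50. *Nos3* was found in all of them. In arterial panel cells *Nos3* was 155, 146 and 222 CPM, a mgR to WT ratio of 0.942 whose interval (0.626 to 1.44) included 1, and a mgR-LOS to mgR ratio of 1.52 (1.09 to 2.12). In capillary panel cells the levels were 126, 31.8 and 103 CPM on 17, 9 and 21 UMIs, a ratio of 0.253 in mgR over WT (0.0994 to 0.600). Lymphatic panel cells had 149, 95.2 and 157 CPM. The remaining ECs had 193, 121 and 185 CPM, with a mgR to WT ratio of 0.629 (0.406 to 0.968). The lower *Nos3* level of the mgR ECs was therefore seen in capillary panel cells and in the remaining ECs by their own intervals and not in arterial panel cells, on few cells of each kind. In lymphatic panel cells the mgR level was also below WT, but no ratio was made because the 15 WT cells were under a minimum of 20. Whether the kinds differed was not tested.

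**Figure D2:**
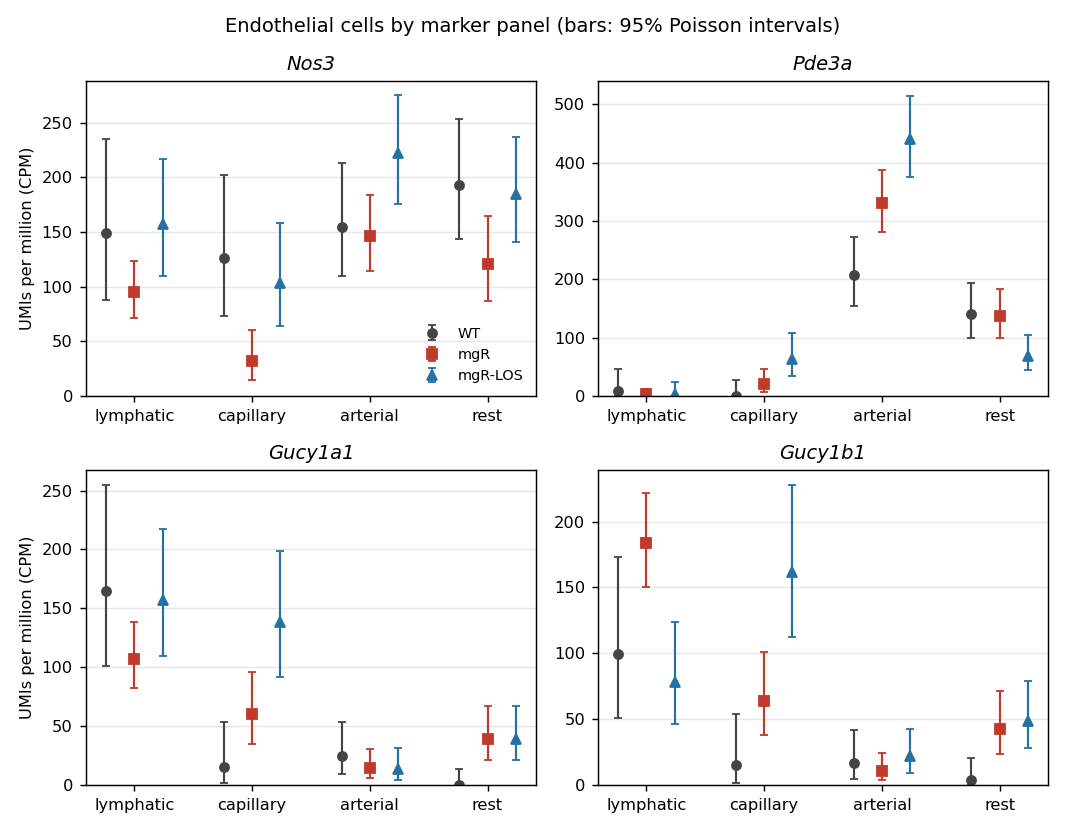
Levels of 4 genes (CPM, vertical axis) in ECs that passed a lymphatic, capillary or arterial panel and in the remaining ECs, for the WT, mgR and mgR-LOS libraries, with 95% Poisson intervals as bars. *Pde3a* was highest in arterial panel cells (208, 331 and 441 CPM), and both cyclase subunits stood at 10.4 to 24.5 CPM there.

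*Nos2*, the inducible synthase, had most of its UMIs in fibroblasts of the mgR library, where 213 UMIs lay in 23 of 2352 cells. There were 0 UMIs in 1304 WT fibroblasts and 30 UMIs in 11 of 3041 mgR-LOS fibroblasts. The fibroblast levels were 0, 7.16 and 1.19 CPM. The mgR level depended on the cell filter and the averaging, 1.82 times as high with cells of at least 200 genes and no upper limit and 4.61 CPM as the mean of per-cell CPM. A count of 0 in the WT class allows a level of up to 3 UMIs. The mgR level was 35.0 times that limit, taken as a bound, and mgR-LOS was 0.166 of mgR (0.109 to 0.244). Both values treat UMIs as independent, yet a few cells carried most of the mgR *Nos2* UMIs. The 6 highest mgR fibroblasts held 55, 40, 25, 23, 21 and 16 UMIs, 180 of the 213, and the other 17 cells held 33. Of the 23 cells, 22 belonged to 1 cluster of 419 fibroblasts, 11 passed a panel of tendon and cartilage genes (*Comp*, *Chad*, *Fmod*, *Tnmd*, *Cilp2*), and 4 were called as doublets. The summed *Comp* panel was 2747 CPM in cells with *Nos2* and 648 CPM in the other mgR fibroblasts, and the summed panel of *Gdf10*, *Hsd11b1*, *Inmt*, *Cxcl12* and *Vwa1* was 76.6 against 1404 CPM. *Npr3* had 0 UMIs in these cells, and *Gucy1a1* had 2 (4.51 against 98.1 CPM). The cluster of 419 fibroblasts that held 22 of them was itself low in both, at 2.60 CPM of *Npr3* and 23.4 CPM of *Gucy1a1*.

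Some genes that feed NO synthesis differed between the *Nos2* cells and the other mgR fibroblasts, and others did not. *Slc7a2*, an arginine transporter, was at 728 CPM in cells with *Nos2* and 74.5 CPM in the others, a ratio of 9.77 (8.66 to 11). *Gch1*, the rate-limiting enzyme for the synthase cofactor tetrahydrobiopterin, was 4.92 times higher (3.25 to 7.19), and *Ass1*, which recycles citrulline toward arginine, 3.36 times higher (2.15 to 5.02). Other genes listed for NO synthesis, its cofactors and substrates were not higher beyond counting error. *Ddah2* was lower, at 0.355 (0.230 to 0.525). Intervals included 1 for *Slc7a1* (0.951), *Pts* (0.810), *Qdpr* (0.953), *Spr* (1.37), *Asl* (1.00) and *Ddah1* (1.46). *Cygb*, a globin that takes up NO, was at 74.4 against 808 CPM, a ratio of 0.0920 (0.0633 to 0.129). *Kcnma1*, a potassium channel opened by the cGMP kinase, was 13.3 times higher (9.07 to 19.0). Cells were sorted here by a measured gene and come from 1 library, so these values describe 23 cells and no group. The comparison was with all other mgR fibroblasts and not with the rest of the cluster. A trait of that cluster was thus not separated from one of the *Nos2* cells. The neutrophil genes *S100a8* and *S100a9* were also present in them (92.4 and 162 CPM, against 0.444 and 0.614 CPM in the other mgR fibroblasts), and the neutrophil list of 5 genes summed to 273 against 1.19 CPM. Of its other members, *Csf3r* was at 13.5 against 0.102 CPM (132 times, 28.2 to 816), *Cxcr2* at 4.51 CPM on 2 UMIs against 0, and *Retnlg* at 0 against 0.0341 CPM. Held-out immune markers summed to 33.8 against 17.6 CPM. The part of neutrophil RNA in the *Nos2* counts was not tested. In the 11 mgR-LOS cells *Slc7a2* was again higher (171 against 41.9 CPM) and *Cygb* lower (141 against 962 CPM), and *S100a8* and *S100a9* had 0 UMIs.

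In ECs *Nos2* was detected at 3, 9 and 5 UMIs. Of these 17 UMIs, 16 lay in capillary panel cells, which were 87 of the 466 ECs, and arterial and lymphatic panel cells held 0 in all 3 libraries. By level ECs stood at 3.89, 5.39 and 4.41 CPM, the highest class in WT and mgR-LOS. In mgR-LOS they were 3.71 times fibroblasts (1.12 to 9.66). In mgR the fibroblasts were 1.33 times ECs, with an interval that included 1 (0.686 to 2.94). Immune cells, a usual source of inducible NO synthase during inflammation, had 0, 10 and 1 UMIs (at most 0.734 CPM), and SMCs had 0, 2 and 1 UMIs. *Nos1* was nearly absent from the tissue, with 7, 1 and 2 UMIs in fibroblasts, at most 1 UMI in SMCs and immune cells of any library, and 0 in ECs, where counts of 0 allow levels of up to 3.89, 1.80 and 2.65 CPM.

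*Gucy1a1*, the α subunit of soluble guanylyl cyclase, stood in SMCs at 263 CPM in WT, 212 CPM in mgR and 428 CPM in mgR-LOS. The mgR library was lowest and the mgR-LOS library highest, with no overlap of their counting intervals, and mgR was 0.808 of WT (0.787 to 0.829) and mgR-LOS 2.02 times mgR (1.97 to 2.06). *Gucy1b1*, the β subunit, stood in SMCs at 261, 199 and 276 CPM. It was lowest in mgR, at 0.761 of WT (0.741 to 0.782), and mgR-LOS was 1.39 times mgR (1.36 to 1.43), short of 1.5-fold. SMCs were thus the class where both subunits were lower in mgR than in WT, and neither passed 1.5-fold. The share of SMCs with a *Gucy1a1* UMI at 1000 UMIs per cell was 21.5%, 20.5% and 32.5%, and for *Gucy1b1* 23.0%, 17.7% and 24.0%, against at most 1.44% of immune cells for either gene. Without thinning the *Gucy1a1* shares were 90.4%, 87.2% and 89.6% of SMCs at median depths of 14377, 15151.5 and 8526 UMIs, and 5.76%, 3.58% and 4.88% of immune cells at 8177, 7642 and 6163 UMIs. Immune cells stood at 2.91%, 3.22% and 1.88% of the SMC level of *Gucy1a1*, near the share left there by held-out muscle markers (1.40% to 2.80%, 2.62% to 4.27% and 1.88% to 3.69%). The WT value lay just above its range. The part of muscle RNA in the immune levels was not tested.

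Fibroblasts as a class went the other way. *Gucy1a1* was 52.8 CPM in WT, 96.7 CPM in mgR and 99.5 CPM in mgR-LOS fibroblasts, and the WT level was lowest. The mgR to WT ratio was 1.83 (1.69 to 1.99), and the mgR-LOS to mgR ratio was 1.03 (0.975 to 1.09). *Gucy1b1* was 34.5, 64.7 and 49.8 CPM, 1.88 times higher in mgR than in WT (1.70 to 2.07) and 0.771 of mgR in mgR-LOS. Fibroblast *Gucy1a1* was 20.1%, 45.6% and 23.2% of the SMC level, above the largest share that held-out muscle markers reached in fibroblasts (13.6%, 11.4% and 11.8%). Fibroblast *Gucy1b1* was 13.2%, 32.6% and 18.0% of the SMC level, above that share in the mutant libraries but not in WT. In ECs *Gucy1a1* was 36.3, 59.3 and 72.4 CPM and *Gucy1b1* 24.6, 85.7 and 66.2 CPM on 19, 143 and 75 UMIs, so mgR was 1.63 (1.06 to 2.58) and 3.48 times (2.15 to 5.94) the WT level. As shares of the SMC level these were 13.8%, 27.9% and 16.9% for *Gucy1a1* and 9.45%, 43.1% and 23.9% for *Gucy1b1*, and the largest share of a held-out muscle marker in ECs was 145%, 20% and 18.8%. EC expression of the subunits lay mostly outside arterial panel cells: *Gucy1b1* was 99.1, 184 and 78.3 CPM in lymphatic panel cells and 16.3, 10.4 and 21.6 CPM in arterial panel cells, and *Gucy1a1* 165, 107 and 157 CPM against 24.5, 14.6 and 13.5 CPM. The lymphatic share, given above, moved with the EC result, and without the lymphatic panel cells the mgR to WT ratios were 2.75 for *Gucy1a1* and 3.15 for *Gucy1b1*, each on fewer than 100 UMIs, and 0.662 for *Nos3*. The direction of *Gucy1b1* in mgR-LOS over mgR turned with them, from 0.773 in all ECs (0.576 to 1.03) to 1.86 without them. Within capillary panel cells *Gucy1b1* was 14.8, 63.7 and 162 CPM, highest in mgR-LOS, which was 2.55 times mgR (1.39 to 4.81). Within lymphatic panel cells mgR-LOS was 0.427 of mgR (0.244 to 0.707). A panel of mural cell genes (*Rgs5*, *Abcc9*, *Kcnj8*, *Higd1b*, *Ndufa4l2*) summed to 27.2, 238 and 426 CPM in all ECs, lowest in WT like both subunits. The part of mural cell RNA in the EC levels of the subunits was not tested.

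The balance of the subunits differed between the libraries. The *Gucy1a1* to *Gucy1b1* ratio of UMIs in SMCs was 1.01 in WT (0.983 to 1.03), 1.07 in mgR (1.04 to 1.10) and 1.55 in mgR-LOS (1.52 to 1.58). In fibroblasts it was 1.53, 1.5 and 2.0, and in ECs 1.47, 0.692 and 1.09. From mgR to mgR-LOS the ratio was multiplied by 1.45 in SMCs, 1.33 in fibroblasts, 1.58 in ECs and 1.21 in immune cells. The intervals of the ratio did not overlap between mgR and mgR-LOS in SMCs and fibroblasts, but they did in ECs (0.530 to 0.901 and 0.790 to 1.52) and in immune cells (0.928 to 1.76 and 0.932 to 2.57). The immune level of *Gucy1a1* was near the share left by held-out muscle markers, as given above. In ECs the higher ratio of mgR-LOS came from lymphatic panel cells, where *Gucy1a1* and *Gucy1b1* were 107 and 184 CPM in mgR and 157 and 78.3 CPM in mgR-LOS. The other ECs went the opposite way, from 60.1 and 63.7 CPM to 138 and 162 CPM in capillary panel cells, from 14.6 and 10.4 CPM to 13.5 and 21.6 CPM in arterial panel cells and from 39.4 and 42.5 CPM to 39.3 and 48.4 CPM in the rest, each on at most 33 UMIs. All classes came from the same pair of libraries and from counting runs of different software versions, and the part of the counting run was not tested. Among SMC clusters of at least 50 gated cells, the ratio ran from 0.889 to 1.53 in 7 WT clusters, from 0.986 to 2.53 in 4 mgR clusters and from 1.35 to 2.43 in 9 mgR-LOS clusters. A single small cluster set the top in WT (226 cells) and in mgR (68 cells), and the next values were 1.02 and 1.08, below every mgR-LOS cluster.

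**Figure D3:**
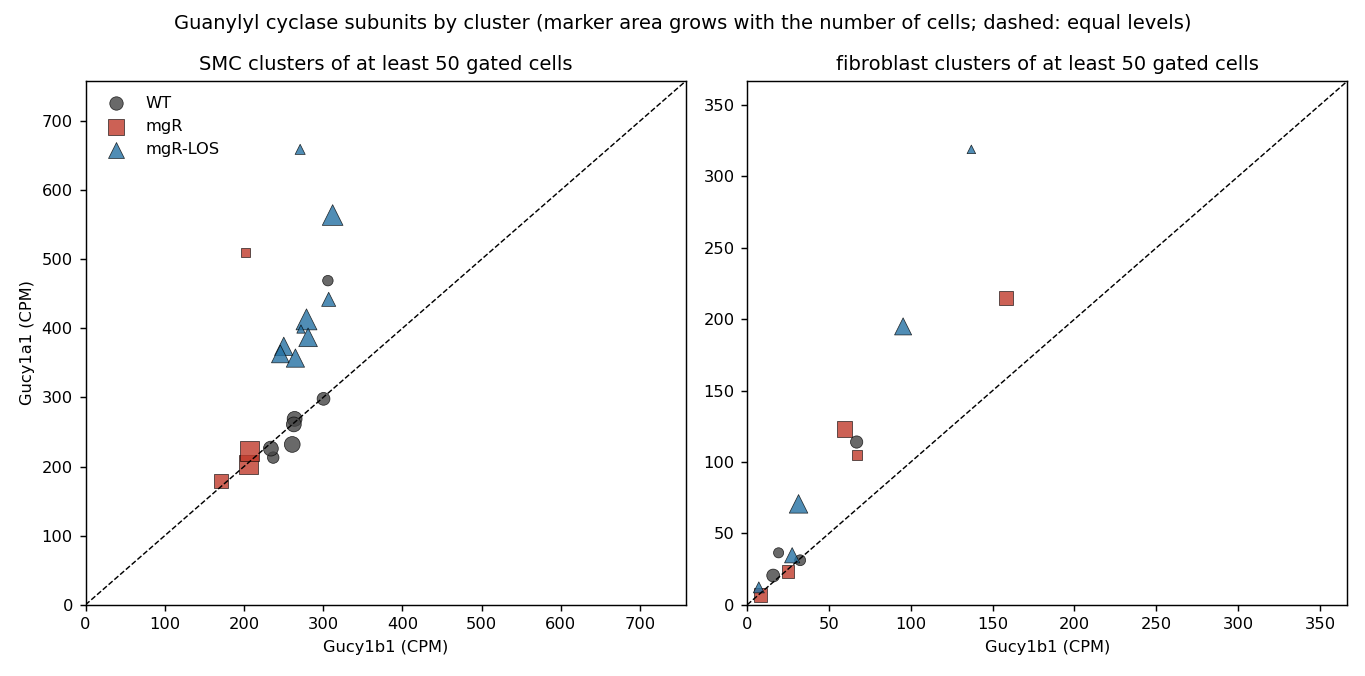
Level of *Gucy1a1* (vertical axis, CPM) against *Gucy1b1* (horizontal axis, CPM) in each SMC cluster (left) and fibroblast cluster (right) of at least 50 gated cells, with marker area growing with the number of cells and a dashed line of equal levels. WT and mgR SMC clusters lie along the line except for 1 small cluster in each, and all 9 mgR-LOS clusters lie above it, between 1.35 and 2.43 times the *Gucy1b1* level.

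SMCs were divided into 3 groups of equal size in each library by a panel of modulated muscle genes (*Vcam1*, *Spp1*, *Timp1*, *Fn1*, *Mgp*), whose summed level in all SMCs was 6695, 28069.9 and 11064 CPM. *Mgp* made up most of that sum, at 6200.3, 25973 and 10439 CPM, so the groups mainly rank cells by *Mgp*. In mgR the cyclase subunits were lower in SMCs with more of the panel, *Gucy1a1* at 234, 217 and 187 CPM and *Gucy1b1* at 220.2, 207 and 170.1 CPM from the lowest to the highest group. *Gucy1b1* had the same order in WT (271, 256 and 255 CPM) and mgR-LOS (295, 284 and 249.5 CPM). *Gucy1a1* did not, with the opposite order in WT (248, 250.4 and 291 CPM) and 417, 436 and 431 CPM in mgR-LOS. *Pde3a* in mgR was 295, 295 and 243 CPM. Even the mgR SMCs lowest in the panel had less *Gucy1b1* (220.2 CPM) than any WT group (255 to 271 CPM). Divided by the SMC gate panel instead, from lowest to highest, mgR *Gucy1a1* was 217, 211 and 209 CPM and *Gucy1b1* 188, 211 and 196 CPM. By that division *Gucy1a1* was 474, 416 and 395 CPM in mgR-LOS. *Rgs5*-panel mural cells were few (34, 19 and 37) and had *Gucy1a1* at 211, 564 and 548 CPM, and SMC ratios without them were close to those of the whole class, for example 0.721 (0.682 to 0.762) for *Npr1* in mgR over WT.

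*Npr1*, the receptor that makes cGMP in response to atrial and B-type natriuretic peptides, was shared by ECs and SMCs. In SMCs it stood at 62.5, 44.7 and 45.4 CPM, lower in both mutant libraries, and mgR was 0.716 of WT (0.677 to 0.756) while mgR-LOS did not differ from mgR beyond counting error (1.02, 0.961 to 1.07). In ECs it was 54.5, 56.9 and 74.1 CPM, and the intervals of ECs and SMCs overlapped in WT and mgR and were apart in mgR-LOS, where ECs were 1.63 times higher (1.30 to 2.03). In fibroblasts it was 28.3 CPM in WT, 17.0 CPM in mgR and 31.6 CPM in mgR-LOS, lowest in mgR. The mgR to WT ratio was 0.602 (0.527 to 0.687) and the mgR-LOS to mgR ratio 1.86 (1.66 to 2.08). SMC clusters covered a wide range of *Npr1*, from 9.72 to 80.4 CPM in WT, 7.70 to 51.2 CPM in mgR and 15.8 to 60.7 CPM in mgR-LOS.

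*Npr3*, the clearance receptor, showed the reverse of *Npr1* in fibroblasts. It stood at 9.83 CPM in WT, 53.5 CPM in mgR and 24.6 CPM in mgR-LOS fibroblasts (144, 1591 and 620 UMIs), and no intervals overlapped. The mgR to WT ratio was 5.44 (4.58 to 6.50), the largest mgR to WT ratio in any class among those of the 10 genes over the UMI minimum, apart from *Nos2*, which had no WT UMI, and mgR-LOS was 0.459 of mgR (0.418 to 0.504). At 1000 UMIs per cell 1.30%, 3.44% and 1.84% of fibroblasts held an *Npr3* UMI, and without thinning 6.75%, 25.1% and 11.5%; immune cells had at most 0.239% and 1.01%. SMCs had 16.3, 18.3 and 14.2 CPM, and ECs 14.3, 11.4 and 30.9 CPM on 11, 19 and 35 UMIs. The leading class therefore differed by library. SMCs and ECs were alike within their intervals in WT, fibroblasts led in mgR at 2.92 times SMCs (2.69 to 3.18), and ECs and fibroblasts were alike within their intervals in mgR-LOS.

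Fibroblasts were divided by 3 panels, led by *Pi16*, *Gdf10* and *Comp*. The *Gdf10* panel cells made up 16.1%, 41.1% and 35.7% of fibroblasts (210, 967 and 1087 cells), the *Pi16* panel cells 22.6%, 22.9% and 20.5%, and the *Comp* panel cells 19.8%, 8.84% and 9.34%. *Npr3* was higher in mgR than in WT in all 4 divisions, at 11.1 and 44.5 CPM in *Pi16* panel cells, 15.2 and 71.6 CPM in *Gdf10* panel cells, 2.67 and 31.1 CPM in *Comp* panel cells and 11.9 and 42.4 CPM in the rest, with ratios of 4.0, 4.72, 11.6 and 3.57 and no interval reaching 1. In mgR-LOS it was 0.476, 0.504 and 0.346 of mgR in *Pi16* panel cells, *Gdf10* panel cells and the rest, and 0.816 in *Comp* panel cells, where the interval included 1 (0.584 to 1.14). *Npr1* in mgR over WT was 0.977 in *Pi16* panel cells (0.772 to 1.24), 0.840 in *Comp* panel cells (0.620 to 1.13), 0.654 in the rest (0.518 to 0.826) and 0.262 in *Gdf10* panel cells (0.166 to 0.419), where it was 16.7, 4.38 and 11.3 CPM. *Npr1* was higher in mgR-LOS than in mgR in each division, at 1.45, 2.58, 1.97 and 1.93 times in *Pi16*, *Gdf10* and *Comp* panel cells and the rest.

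The cyclase subunits, *Prkg1* and *Pde5a* were highest in the *Gdf10* panel cells in each library, and *Npr1* was lowest there. *Gucy1a1* was 139, 170.0 and 168 CPM in *Gdf10* panel cells, 12.2, 8.99 and 20 CPM in *Pi16* panel cells, 34.0, 44.9 and 69.2 CPM in *Comp* panel cells and 56.1, 83.2 and 94.1 CPM in the rest. Within the *Gdf10* panel cells, mgR over WT was 1.22 for *Gucy1a1* (1.08 to 1.39), 2.02 for *Gucy1b1* (1.66 to 2.47), 1.68 for *Prkg1* (1.34 to 2.13) and 2.31 for *Pde5a* (1.87 to 2.89). The *Pi16* panel cells went against the class in *Gucy1b1*, with mgR over WT at 0.579 (0.390 to 0.866). There *Gucy1a1* was 0.740 and *Pde5a* 0.936 (0.738 to 1.19), both with intervals that included 1, and *Prkg1* went with the class at 1.53 (1.06 to 2.27). *Comp* panel cells had mgR over WT at 1.32 for *Gucy1a1*, 1.22 for *Gucy1b1*, 1.67 for *Prkg1* (1.23 to 2.28) and 2.14 for *Pde5a* (1.53 to 3.02). The rest had 1.48 for *Gucy1a1* (1.30 to 1.70), 1.19 for *Gucy1b1*, 1.07 for *Prkg1* and 1.38 for *Pde5a* (1.14 to 1.66). Of these, *Gucy1b1* in *Comp* panel cells and *Prkg1* in the rest had intervals that included 1. In mgR-LOS over mgR, *Gucy1a1* was 2.22 in *Pi16* panel cells (1.62 to 3.07) and 1.54 in *Comp* panel cells (1.22 to 1.95), against 0.986 in *Gdf10* panel cells and 1.03 in the whole class. Without the *Gdf10* panel cells the fibroblast ratios of mgR over WT were 1.22 for *Gucy1a1*, 1.02 for *Gucy1b1*, 1.16 for *Prkg1*, 1.36 for *Pde5a* and 0.845 for *Npr1*, all within 1.5-fold, and *Npr3* and *Nos2* remained past it. The share of *Gdf10* panel cells moved with the fibroblast results of these 5 genes.

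**Figure D4:**
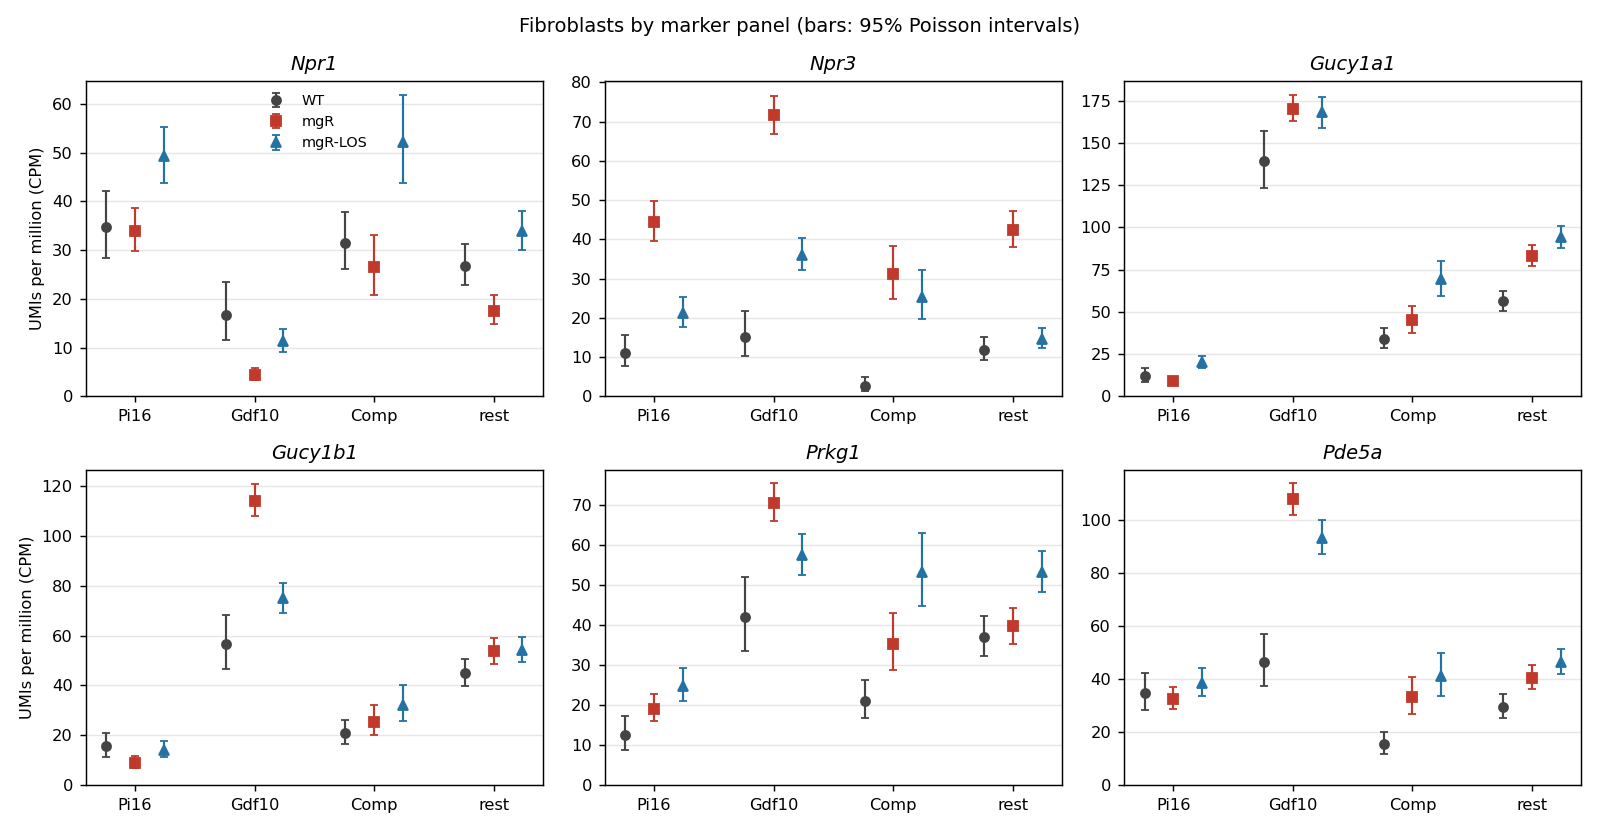
Levels of 6 genes (CPM, vertical axis) in fibroblasts that passed the *Pi16*, *Gdf10* or *Comp* panel and in the remaining fibroblasts, for the WT, mgR and mgR-LOS libraries, with 95% Poisson intervals as bars. *Npr3* was higher in mgR than in WT in all 4 divisions, and *Gucy1a1* differed more between divisions (8.99 to 170.0 CPM in mgR) than between libraries within the *Gdf10* panel cells (139 to 170.0 CPM).

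*Prkg1*, the cGMP-dependent kinase, stood at 79.5, 110.4 and 117 CPM in SMCs, lowest in WT. The mgR to WT ratio was 1.39 (1.33 to 1.45), opposite in direction to the cyclase subunits and *Npr1* in the same cells and short of 1.5-fold, and mgR-LOS over mgR was 1.06. In fibroblasts *Prkg1* was 28.7, 46.8 and 48.2 CPM, 1.63 times higher in mgR than in WT (1.46 to 1.82). SMCs exceeded fibroblasts 2.77-fold, 2.36-fold and 2.44-fold, and ECs had 19.5, 16.8 and 27.4 CPM with overlapping intervals.

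*Pde5a*, the cGMP-specific phosphodiesterase that sildenafil inhibits, stood in SMCs at 127, 119 and 188 CPM. WT and mgR were close (0.938, 0.905 to 0.972), and mgR-LOS was 1.58 times mgR (1.53 to 1.63). In fibroblasts it was 29.3, 64.7 and 60.2 CPM, 2.21 times higher in mgR than in WT (1.99 to 2.46) and 0.929 of mgR in mgR-LOS (0.868 to 0.994). The SMC level was 4.34, 1.84 and 3.12 times the fibroblast level. In immune cells it was 9.34, 4.33 and 9.15 CPM on 11, 59 and 49 UMIs, and mgR-LOS was 2.11 times mgR (1.42 to 3.14). These immune levels were 7.35%, 3.64% and 4.87% of the SMC level. Held-out muscle markers left 1.40% to 2.80%, 2.62% to 4.27% and 1.88% to 3.69% there, so the mgR level lay within that range. The part of muscle RNA in the immune ratio was not tested. Among immune cells *Pde5a* was highest by level in cells of the T cell panel, 60.5, 18.0 and 52.3 CPM on 6, 12 and 12 UMIs, leaving aside cells of the B cell panel in mgR-LOS, where 4 cells held 1 UMI. *Pde3a* stood at 265, 277 and 314 CPM in SMCs and 64.7, 81.1 and 80.1 CPM in fibroblasts, with all ratios between libraries within 1.5-fold. In ECs it was 117, 127 and 176 CPM, and in arterial panel cells it was 208, 331 and 441 CPM, against 8.26, 3.46 and 4.35 CPM in lymphatic panel cells. Arterial panel cells of mgR were 1.59 times WT (1.16 to 2.23) and those of mgR-LOS 1.33 times mgR (1.06 to 1.67).

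Counted by the fold rule in mgR over WT, 8 of the 10 genes passed the UMI minimum in fibroblasts, and 6 were higher (*Nos2*, *Gucy1a1*, *Gucy1b1*, *Prkg1*, *Pde5a* and *Npr3*) and 1 lower (*Npr1*), against 7.31% of all genes higher and 6.47% lower; *Nos2* passed the minimum through mgR alone. The median ratio of the 8, with *Nos2* at its bound, was 1.85, against 0.993 over all genes. In SMCs 0 of 7 were past the fold, against 7.00% of genes higher and 6.93% lower, although the interval of each of the 7 ratios excluded 1. In ECs 2 of 5 were higher (*Gucy1a1*, *Gucy1b1*) and 1 lower (*Nos3*), against 8.45% and 3.30%, and in immune cells 0 of 2, against 10.7% and 5.88%. The EC counts of *Gucy1a1* and *Gucy1b1* were 28 and 19 UMIs in WT and 99 and 143 UMIs in mgR. Both passed the minimum mainly through mgR, where their levels were higher. In mgR-LOS over mgR, 2 of 7 were higher in SMCs (*Gucy1a1*, *Pde5a*), against 8.06% higher and 4.45% lower over all genes. In fibroblasts 1 of 8 was higher (*Npr1*) and 2 lower (*Nos2*, *Npr3*), against 5.06% and 4.33%. In ECs 1 of 5 was higher (*Nos3*), against 5.27% higher and 6.02% lower, and in immune cells 2 of 4 (*Pde5a*, *Pde3a*), against 5.82% higher and 5.38% lower. In mgR immune cells *Pde5a* and *Pde3a* stood at 3.64% and 2.86% of their SMC levels. That is within the share left there by held-out muscle markers (2.62% to 4.27%). The median ratios of mgR-LOS over mgR were 1.30 in ECs, 1.13 in SMCs, 0.959 in fibroblasts and 1.41 in immune cells, against 0.968, 1.04, 1.01 and 1.03 over all genes.

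**Figure D5:**
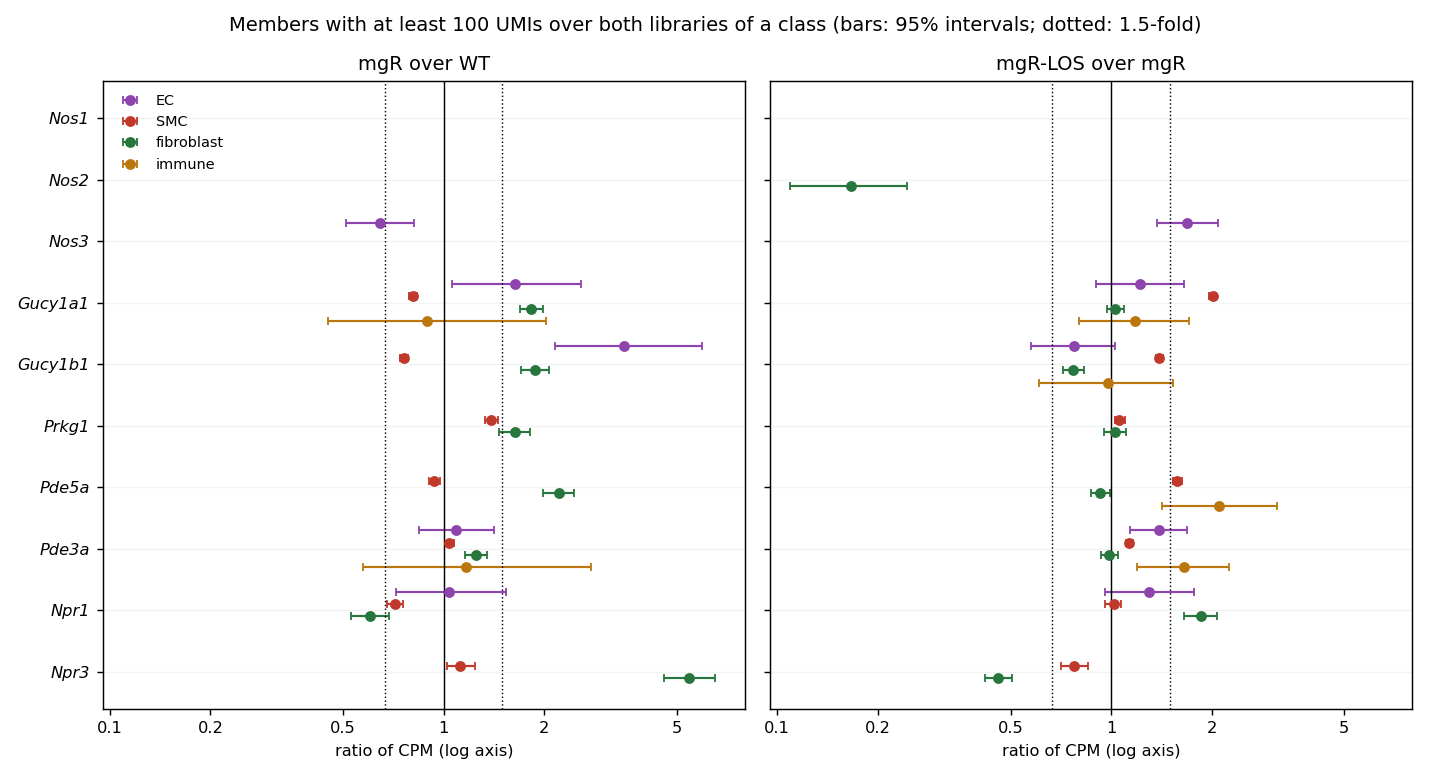
CPM ratio (horizontal log axis) of mgR over WT (left) and mgR-LOS over mgR (right) for each gene with at least 100 UMIs over both libraries of a class, colored by class, with 95% intervals as bars and dotted lines at 1.5-fold in each direction; *Nos2* in fibroblasts of mgR over WT has no ratio because WT had 0 UMIs and is not drawn. In the left panel the fibroblast points of *Gucy1a1*, *Gucy1b1* and *Pde5a* lie to the right of 1 (1.83, 1.88 and 2.21) and the SMC points to the left (0.808, 0.761 and 0.938).

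A list of 53 other genes of the pathway was read by the same rule. In SMCs 39 passed the minimum, and in mgR over WT 10 were higher and 5 lower, against 7.00% and 6.93% of all genes. Largest were *Cygb* (6.07), *Ass1* (3.31) and *Gch1* (2.37), at no more than 7.03 CPM in mgR, and the smallest were *Nppa* (0.0918), which encodes atrial natriuretic peptide, *Rgs2* (0.195), a regulator of G protein signaling that the cGMP kinase acts on (54.5 CPM in WT and 10.6 CPM in mgR), and *Ppp1r12a* (0.631), the targeting subunit of myosin phosphatase. *Cygb* was at 808 CPM in mgR fibroblasts without *Nos2*. Held-out fibroblast markers in mgR SMCs stood at 0.341% to 41.7% of their fibroblast level, with a median of 0.660%. The part of fibroblast RNA in the SMC value of *Cygb* was not tested. *Nppa* was also 1 of 5 genes listed as cardiomyocyte markers, which together stood at 61.0, 69.6 and 56.0 CPM in SMCs with none of the 5 at 0. Most of that sum was *Ryr2* (37.2, 67.3 and 45.4 CPM), and the other 4 were lower in mgR than in WT, *Nppa* at 4.83 and 0.444 CPM, *Actc1* at 13.1 and 0.824 CPM, *Myh6* at 3.01 and 0.929 CPM and *Myl7* at 2.80 and 0.0845 CPM. The cardiomyocyte markers apart from *Ryr2* thus moved with *Nppa*, and the part of cardiomyocyte RNA in it was not tested. Of 38 genes in SMCs, 6 were higher and 2 lower in mgR-LOS over mgR, against 8.06% and 4.45% of all genes, led by *Hba-a1* (4.21), *Hba-a2* (4.11) and *Corin* (3.07), a protease that activates natriuretic peptides, and lowest were *Gch1* (0.586) and *Cyb5r3* (0.660), a reductase of the cyclase heme. By role, the SMC genes higher in mgR over WT were 3 of 10 for NO synthesis, 0 of 4 for binders of the synthases, 3 of 6 for heme proteins and thiol enzymes, 1 of 9 for kinases and targets, 1 of 5 for other cyclases and their ligands and 2 of 5 for phosphodiesterases (*Pde1c* and *Pde10a*), and those lower were 3 kinases or targets and 2 of the cyclases and ligands. In mgR-LOS over mgR the same roles had 0 of 10, 0 of 4, 2 of 6, 1 of 9, 1 of 4 and 2 of 5 higher (the last *Pde1a* and *Pde10a*), with 1 gene of NO synthesis and 1 heme protein or thiol enzyme lower.

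In fibroblasts 5 of 40 were higher and 8 lower in mgR over WT, against 7.31% and 6.47% of all genes. Highest were *Nostrin* (1.99), which binds endothelial NO synthase, *Mrvi1* (1.71), a substrate of the cGMP kinase, and *Slc7a2* (1.67), and lowest were *Hba-a1* (0.0138), *Hba-a2* (0.0168) and *Kcnma1* (0.394). In mgR-LOS over mgR 6 of 42 were higher and 3 lower, against 5.06% and 4.33% of all genes, with *Hba-a1* (34.8), *Hba-a2* (28.5) and *Corin* (2.49) highest and *Ddah1* (0.493), which degrades an inhibitor of NO synthase, *Slc7a2* (0.505) and *Pln* (0.550) lowest. The hemoglobin α chains moved with the summed red cell list of 5 genes, both α chains included, which stood at 617, 11.9 and 245 CPM in fibroblasts and 46.9, 92.0 and 238 CPM in SMCs; the part of red cell RNA in them was not tested. In ECs 1 of 17 genes was higher in mgR over WT, *Ddah1* (1.97, 1.38 to 2.88), and 0 were lower, against 8.45% and 3.30% of all genes. Of 19 genes in ECs, 1 was higher in mgR-LOS over mgR (*Ddah2*, 1.84) and 2 were lower, *Nppc* (0.109, 122 and 9 UMIs), which encodes C-type natriuretic peptide, and *Gchfr* (0.394), which inhibits *Gch1*, against 5.27% higher and 6.02% lower over all genes. In immune cells 7 of 30 were higher in mgR over WT and 0 lower, against 10.7% and 5.88% of all genes, led by *Hba-a2* (6.96), *Arg1* (6.70), the arginase that competes with NO synthase for arginine, and *Hba-a1* (3.42), with the red cell list there at 27.2, 274 and 186 CPM. Of 33 genes in immune cells, 4 were higher in mgR-LOS over mgR, led by *Cygb* (1.90), *Arg1* (1.72) and *Mrvi1* (1.56), and 3 lower, *Arg2* (0.282), *Ass1* (0.343) and *Txn1* (0.639), against 5.82% and 5.38% of all genes.

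Cells that passed more than 1 class panel were kept out of the 4 classes. They numbered 117, 546 and 696, and 48.7%, 30.8% and 62.5% of them were called as doublets. Their *Gucy1a1* level was 278, 195 and 310.4 CPM, *Npr3* 20.9, 53.2 and 27.5 CPM and *Nos3* 16.9, 6.55 and 6.91 CPM, so *Npr3* was highest in mgR here as in fibroblasts, and *Nos2* had at most 2 UMIs.

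Genes whose log2(CPM + 1) over the 12 class and library values was among the most like each of the 10, of 8734 genes searched, were named by Pearson's r as a description, since the 12 values share 3 libraries. *Nos3* was close to *Rbp7* (r = 0.999) and *Arhgef15* (0.996). *Gucy1a1* was closest to *Pkdcc* (0.983), *Atoh8* (0.982) and *Cald1* (0.979), and *Gucy1b1* to *Cald1* (0.987), *Serpine2* (0.984) and *Esyt2* (0.977). *Prkg1* was closest to *Fhl1* (0.988), *Fam13c* (0.987) and *Atoh8* (0.984), *Pde5a* to *Trabd2b* (0.977), *Mark1* (0.974) and *Cep170b* (0.973), and *Pde3a* to *Ttc28* (0.995), *Cpe* (0.994) and *Kctd10* (0.992). *Npr1* was close to *Gkap1* (0.979) and *Oaz2* (0.979). *Npr3* had weaker matches, *Angpt2* (0.962), *Smad7* (0.952) and *Ptprf* (0.950), and *Nos2* had the weakest, *Wnt2* (0.896), *Slc30a7* (0.896) and *Plod3* (0.894).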

How the data were processed

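The deposited files were raw UMI counts per gene and cell, made by the authors with Cell Ranger from 10x 3′ libraries on mm10; the file headers give version 5.0.1 for WT and mgR and 6.0.1 for mgR-LOS, and the submitters' processing notes give 6.0.1 for all. Ascending aortas were digested with elastase and collagenase and red cells were lysed. A cell was kept if it had between 600 and 5000 genes and no more than 10% of UMIs from mitochondria, and gated on panel UMIs per 10000 (EC at least 10, SMC 100, fibroblast 60, immune 15), with a cell in a class if it passed that panel alone; these limits and those of the subclass panels were set after the spread of the panels was seen. UMIs were summed per class and library (CPM), with exact Poisson intervals for levels, exact conditional binomial intervals for ratios and Clopper-Pearson intervals for shares, at 95% and for counting error only. Free RNA in droplets was not removed. Doublets were called by an artificial-neighbor score (230, 522 and 1295 cells) and kept, then removed in an alternative. The 3′ counts do not scale with transcript length, so levels were compared within a gene. Clusters were made per library with scanpy 1.11.5 (Leiden, resolution 1.0, 2000 variable genes without the 10 members); other steps used Python 3.11.15, numpy 2.4.6 and scipy 1.17.1. The call rule was tested on simulated data. Named were the 10 members, up to 3 genes of the pathway list at each end per class and comparison, the 3 most like genes per member (at least 20 CPM in 1 value; some are not reported here) and *Fbn1*; genes of the *Nos2* cells and the phosphodiesterases by role were named after their values were seen. The members and lists were chosen with earlier results of these data known.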

Additional observations from a re-analysis of the deposited data

Results flagged for a closer look

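Some genes moved in opposite directions in 2 classes under the same contrast, with counting intervals that excluded 1 in each; the difference between the classes was not tested, since each class had 1 library per group. In mgR over WT *Gucy1a1* was 1.63 in ECs and 1.83 in fibroblasts but 0.808 in SMCs, and *Gucy1b1* was 3.48 in ECs and 1.88 in fibroblasts but 0.761 in SMCs. *Pde5a* in mgR over WT was 2.21 in fibroblasts and 0.938 in SMCs. In mgR-LOS over mgR *Pde5a* was 1.58 in SMCs and 2.11 in immune cells but 0.929 in fibroblasts. The mgR immune level of *Pde5a* was within the share of the SMC level left by held-out muscle markers, and the part of muscle RNA was not tested.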

How the results depend on the processing

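No paired analysis was possible because each group had 1 library, and for the same reason no replicate could be left out. Of the alternatives run on the single genes of the 10, 311 values kept their side of 1.5-fold, 18 passed the fold newly, 11 lost it and 0 values past the fold reversed; the cause was not tested. In mgR-LOS over mgR *Gucy1b1* of ECs turned from 0.773 to 1.86 without lymphatic panel cells. With 100 UMIs replaced by 1 UMI in each library, genes past the fold in mgR over WT numbered 5 of the 10 in immune cells, and of the pathway list 17 in ECs, 23 in SMCs, 22 in fibroblasts and 17 in immune cells; in mgR-LOS over mgR they numbered 4 in ECs, 4 in SMCs, 5 in fibroblasts and 6 in immune cells, and 17, 13, 16 and 16 of the list, since more genes were then counted. At that setting the share of all genes past the fold in a single direction was 8.66% to 18.9%, by class and comparison. At 100 UMIs it was 3.30% to 10.7%. The counts of genes given here take both directions together. At a fold of 2, in mgR over WT 1 of the 10 remained in ECs and 3 in fibroblasts, and of the list 0 in ECs, 8 in SMCs and 4 in fibroblasts; in mgR-LOS over mgR 0 remained in ECs, 1 in SMCs and 1 in immune cells, and of the list 3 in SMCs, 5 in fibroblasts and 2 in immune cells. Of all genes, 0.901% to 4.60% were past a fold of 2 in a single direction, by class and comparison. Leiden clusters in place of the gate gave 2 genes of the list in ECs and 4 of the 10 and 13 of the list in immune cells for mgR over WT, and 3 of the 10 in ECs and 6 in immune cells for mgR-LOS over mgR. Of all genes, 7.73% were then higher and 3.83% lower in ECs and 14.9% and 5.26% in immune cells for mgR over WT. For mgR-LOS over mgR these shares were 5.85% and 6.60% in ECs and 9.65% and 4.70% in immune cells. Keeping cells from 200 genes up gave 3 of the list in ECs for mgR over WT, and 3 of the 10 and 6 of the list in ECs for mgR-LOS over mgR. The shares of all genes higher and lower in ECs were then 10.6% and 3.86%, and 5.16% and 4.84%. Means of per-cell CPM gave 2 of the 10 in ECs and 5 of the list in SMCs for mgR-LOS over mgR, against 5.70% of all genes higher and 7.44% lower in ECs and 6.88% and 5.14% in SMCs. A mitochondrial limit of 5% and the removal of called doublets each left 1 of the 10 in immune cells for mgR-LOS over mgR. Of all genes, 6.21% were higher and 4.83% lower there at the 5% limit, and 5.86% and 5.24% without doublets. In alternatives chosen after seeing the data, ECs without lymphatic panel cells gave 1 of the 10 in mgR over WT, since both cyclase subunits were then under 100 UMIs, and fibroblasts without *Gdf10* panel cells gave 2 of the 10 and 7 of the list. Of all genes in mgR over WT, 7.49% were then higher and 3.62% lower in ECs, and 6.87% and 5.60% in fibroblasts. *Gucy1a1* of ECs in mgR over WT was 1.48 at the 5% limit and under a stricter gate and 1.45 with Leiden clusters, *Nos3* there was 0.747 by per-cell means, and *Npr1* of fibroblasts was 0.676 by per-cell means. *Nos3* of ECs in mgR-LOS over mgR was 1.5 after rounding at the 5% limit, just short of the fold. In immune cells *Gucy1a1* in mgR over WT lay between 0.535 and 2.43 over the alternatives, on 9 WT UMIs. With 99 WT ECs, 19 *Gucy1b1* UMIs set the precision of the EC ratios, and members under 100 UMIs in a class were not called at this depth.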
